A study of Mus musculus with 4 samples.

Results

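The 10 genes described here encode ligands, receptors and one matrix target of the transforming growth factor β (TGF-β) and activin pathway, and were chosen by name from the 23361 genes of the deposited table: the ligand genes Tgfb1, Tgfb2, Tgfb3, Inhba and Inhbb, the receptor genes Tgfbr1, Tgfbr2, Tgfbr3 and Acvr2a, and the target Tgfbi. They were compared between 2 populations of embryonic mouse cells, Nfatc1+ and Shh+, which the study describes as hair peg cells, with 2 RNA-seq libraries each. All embryos carried a Rosa-stop-tdTomato allele, which gives red fluorescence after recombination, and K14-H2BGFP, a nuclear GFP driven in basal epithelial cells. In the Nfatc1+ group the tamoxifen-dependent recombinase CreER was expressed from Nfatc1, and in the Shh+ group from Shh. Tamoxifen was given at E15.5 and back skin was taken at E17.5 from both groups, when cells with both GFP and red fluorescence were sorted. The red label marks every cell in which CreER was active after tamoxifen together with its progeny, so a sorted cell need not still have expressed the driver gene. The Nfatc1+ cells were released by digesting the whole skin in 0.25% trypsin at 37°C for 16 min, whereas for the Shh+ cells the skin was held in 0.4 mg/ml dispase for 1 h at 37°C, the epidermis was removed, and trypsin was applied for 10 min. The study states that the removed epidermis held placodes and hair germs, and this removal is described for the Shh+ cells alone. Population, driver allele, skin layers used and digestion therefore cannot be told apart in any difference below. Whether each library came from its own embryo or litter is not given in the sources used here, and the p-values therefore cover no more than library-to-library spread, which may be technical.

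TGF-β ligands are secreted in a latent complex and, once released, bind the type II receptor Tgfbr2, which recruits and phosphorylates the type I receptor Tgfbr1, while Tgfbr3, or betaglycan, presents ligand and is needed most for Tgfb2. Activins are dimers of the subunits encoded by Inhba and Inhbb, bind the type II receptors Acvr2a and Acvr2b and the type I receptor Acvr1b, and are held inactive by follistatin. Both branches phosphorylate Smad2 and Smad3, which enter the nucleus with Smad4, and in the skin both are known to affect the formation and cycling of hair follicles.

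The promoters of the genes with the largest differences are shown so that their sequence can be set beside their values, with Inhba added as the paralog of Inhbb. RefSeq promoter sequences on GRCm38.p6 matched 8 of the 10 genes and gave 9 promoters, since Tgfbr1 has a pair of start sites, while Tgfb3 and Tgfbr3 had no entry. Capitals mark the Smad half-site CAGAC, or its reverse complement GTCTG, and each sequence comes from the 250 bases before a RefSeq start site, read 5′ to 3′ on the gene's own strand. Inhbb lies at chr1:119422249-119422498 on the minus strand, Tgfb2 at chr1:186705990-186706239 on the minus strand, Tgfbr2 at chr9:116175364-116175613 on the minus strand, Inhba at chr13:16011601-16011850 on the plus strand, and Tgfbi, of which only the first 187 of the 250 bases are printed because the rest, next to the start site, overlaps an annotated exon, at chr13:56609336-56609522 on the plus strand. The RefSeq spans of Tgfb2 and Inhba reach farther upstream than these start sites.
Inhbb: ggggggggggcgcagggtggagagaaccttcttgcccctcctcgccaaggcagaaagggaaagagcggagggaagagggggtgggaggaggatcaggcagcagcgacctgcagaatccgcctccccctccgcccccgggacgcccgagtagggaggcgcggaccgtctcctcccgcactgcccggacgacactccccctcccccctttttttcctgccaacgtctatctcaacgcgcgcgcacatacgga
Inhba: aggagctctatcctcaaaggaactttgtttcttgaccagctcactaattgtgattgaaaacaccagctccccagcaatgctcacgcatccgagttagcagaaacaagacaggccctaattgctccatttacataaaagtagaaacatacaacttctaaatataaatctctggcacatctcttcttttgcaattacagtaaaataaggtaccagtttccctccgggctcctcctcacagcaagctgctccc
Tgfb2: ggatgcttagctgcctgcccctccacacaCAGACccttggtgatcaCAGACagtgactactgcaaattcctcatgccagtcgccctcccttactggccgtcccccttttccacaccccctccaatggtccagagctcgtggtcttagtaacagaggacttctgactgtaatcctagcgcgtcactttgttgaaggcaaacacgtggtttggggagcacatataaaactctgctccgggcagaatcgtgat
Tgfbr2: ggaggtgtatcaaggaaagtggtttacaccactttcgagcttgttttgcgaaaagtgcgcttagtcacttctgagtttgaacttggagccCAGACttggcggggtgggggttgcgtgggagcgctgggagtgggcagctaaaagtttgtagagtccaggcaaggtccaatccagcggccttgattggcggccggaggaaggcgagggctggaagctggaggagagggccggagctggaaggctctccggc
Tgfbi: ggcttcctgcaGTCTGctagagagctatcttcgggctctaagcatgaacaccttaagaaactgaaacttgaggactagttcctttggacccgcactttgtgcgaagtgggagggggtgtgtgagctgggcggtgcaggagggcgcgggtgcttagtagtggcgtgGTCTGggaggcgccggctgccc

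The half-site CAGAC, searched on both strands in all 250 bases before each RefSeq start site, the unprinted bases of Tgfbi included, was present in 5 of the 9 promoters and in 42.2% of all 32851 promoters. Tgfb2 held a pair of copies, at -221 to -217 and -204 to -200 from its start site, Tgfbi held a pair at -239 to -235 and -85 to -81 from its RefSeq start site at base 56609586, and Tgfbr2 held a single copy at -160 to -156. The core GGAAA, to which NFAT proteins can bind, was found in 4 of the 9 promoters and in 55.6% of all promoters. The Smad box GTCTAGAC, the AP-1 motif TGANTCA, the cyclic AMP response element TGACGTCA and the Tcf/Lef motif CTTTGAT were in none of the 9, against 0.167%, 6.75%, 1.55% and 3.21% of all promoters. The Inhbb and Inhba windows differed in base composition, with a GC content of 68.0% and 21 CpG dinucleotides in Inhbb against 43.2% and 3 CpG in Inhba, where the median GC content of all promoters was 52.4%. These matches describe letters in a window and are not evidence of binding.

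Expression is given as the deposited FPKM, a fragment count divided by transcript length and by the library's mapped total. Limma was run on log2(FPKM + 0.5) of the 12750 genes that averaged 0.5 FPKM or more, a gene was called at a Benjamini-Hochberg adjusted p under 0.05 over all of them, and a log2 fold change is the Shh+ mean less the Nfatc1+ mean of these log values, so that changes of low genes are understated. Folds are ratios of mean FPKM, and errors are SD with n = 2 unless named as a standard error (SE). The driver genes followed the labels: Shh was at 10.5 and 11.7 FPKM in the Nfatc1+ libraries and at 143.9 and 144.7 FPKM in the Shh+ libraries, and Nfatc1 was at 112 and 116 FPKM against 25.3 and 20.1 FPKM. Absolute depth is unknown, since FPKM keeps no counts. From the steps between low values, Shh+ replicate 2 was the shallowest library, with a depth of 0.575 relative to Nfatc1+ replicate 1, and the others lay between 0.925 and 1. Keratinocyte markers were high in every library, with Krt14 between 1030.0 and 1232 FPKM, while markers of immune cells summed to at most 9.62 FPKM, and those of endothelium to at most 5.63 FPKM, in a library.

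Of the 10 genes, 9 passed the filter on low values and 6 were called. The ligands Tgfb2, Tgfb3 and Inhbb, the receptor Tgfbr2 and the target Tgfbi were higher in Nfatc1+ cells, each by at least 2-fold, the coreceptor Tgfbr3 was higher in Shh+ cells, and Tgfb1, Tgfbr1 and Acvr2a were not called. Among all tested genes 37.0% were called, 18.9% higher in Nfatc1+ cells and 18.1% higher in Shh+ cells, and calls of at least 2-fold made up 5.81% in the direction of Nfatc1+ and 4.77% in the direction of Shh+. The median log2 fold change of the 9 genes was -1.02, against 0.0018 for all tested genes, and the median of its absolute value was 1.02 against 0.24. For 8 of the 9, the libraries of one group all lay above those of the other, as they did for 70.7% of all tested genes. In sorted bulk libraries, fewer cells of a type and less RNA per cell cannot be told apart.

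**Figure D1:**
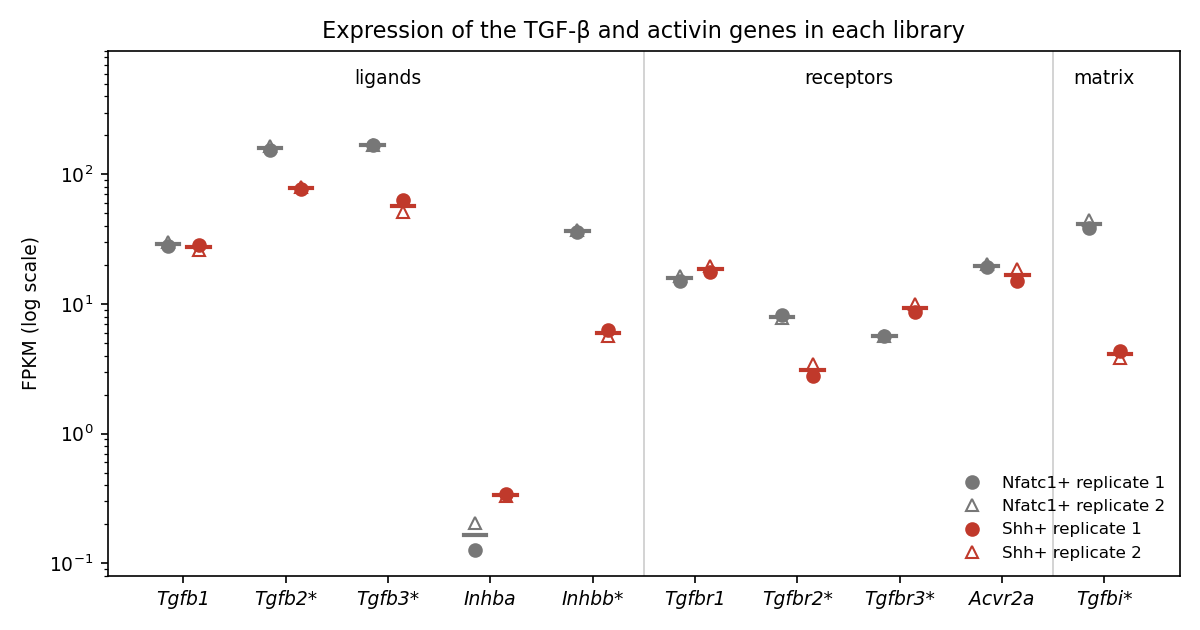
FPKM of each of the 10 genes in each library on a log axis, with Nfatc1+ in grey and Shh+ in red, 2 libraries per group as points, bars at the means and an asterisk for called genes. The Nfatc1+ libraries lie far above the Shh+ libraries for Tgfbi and Inhbb, the groups interleave for Tgfb1, and Inhba lies below 0.5 FPKM in all 4 libraries.

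Among the TGF-β ligands, the 2 most abundant isoforms differed between the populations and Tgfb1 did not pass the test. Tgfb2, which is required for normal hair follicle formation in the mouse embryo and occupies bases 186622792 to 186705989 of chromosome 1 (GRCm38, as for the positions below), was at 153 and 166 FPKM in the Nfatc1+ libraries and at 76.8 and 80.2 FPKM in the Shh+ libraries. Both Nfatc1+ libraries stood well above both Shh+ libraries. The means were 159.6 ± 9.51 and 78.5 ± 2.35 FPKM, a 2.03-fold difference (log2 fold change -1.02, SE 0.07, limma adjusted p = 4.96e-05).

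Tgfb3, the isoform best known from palate fusion, lies on chromosome 12 from 86056745 to 86079041 and was at 169 and 169 FPKM in the Nfatc1+ libraries against 63.0 and 51.7 FPKM in the Shh+ libraries. The Nfatc1+ libraries were nearly equal, while the Shh+ libraries were farther apart from each other, though both lay far below. Its means of 168.7 ± 0.192 and 57.3 ± 8.0 FPKM differed 2.94-fold (log2 fold change -1.56, SE 0.09, limma adjusted p = 3.96e-05).

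Tgfb1, the isoform most often studied in fibrosis and growth arrest, lies on chromosome 7 from 25687002 to 25705077 and was at 28.2 and 30.0 FPKM in Nfatc1+ cells and at 28.7 and 25.9 FPKM in Shh+ cells. The libraries of the groups interleaved. The log2 fold change was -0.09, with a 95% confidence interval of -0.28 to 0.10 and a limma adjusted p = 0.423, so a difference of the size seen in Tgfb2 or Tgfb3 lay outside the interval.

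Added together, the ligand transcripts came to 349.9 and 364.9 FPKM in Nfatc1+ cells and 168.6 and 157.7 FPKM in Shh+ cells, a 2.19-fold difference of the means. The makeup of the sum also differed. Tgfb1 made up 8.05% and 8.22% of it in the Nfatc1+ libraries and 17.1% and 16.4% in the Shh+ libraries. The share of Tgfb3 was 48.3% and 46.2% in Nfatc1+ cells and 37.4% and 32.7% in Shh+ cells, and that of Tgfb2 was 43.7% and 45.6% against 45.6% and 50.8%. The ratio of Tgfb3 to Tgfb2 was 1.10 and 1.01 in the Nfatc1+ libraries and 0.819 and 0.644 in the Shh+ libraries, so Tgfb3 ranked first of the 10 genes in Nfatc1+ cells and Tgfb2 in Shh+ cells. In Nfatc1+ cells the means of Tgfb3 and Tgfb2 differed by less than the SD of Tgfb2. Relative to Tgfb1 within each library, which removes any scaling between libraries, Tgfb2 stood at 5.43 and 5.55 in Nfatc1+ cells and 2.67 and 3.09 in Shh+ cells, and Tgfb3 at 6.00 and 5.62 against 2.19 and 1.99. Neither ratio overlapped between the groups. For these and the other ratios below, a two-sided exact permutation test gave p = 0.333, the smallest that 2 libraries against 2 can give.

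**Figure D2:**
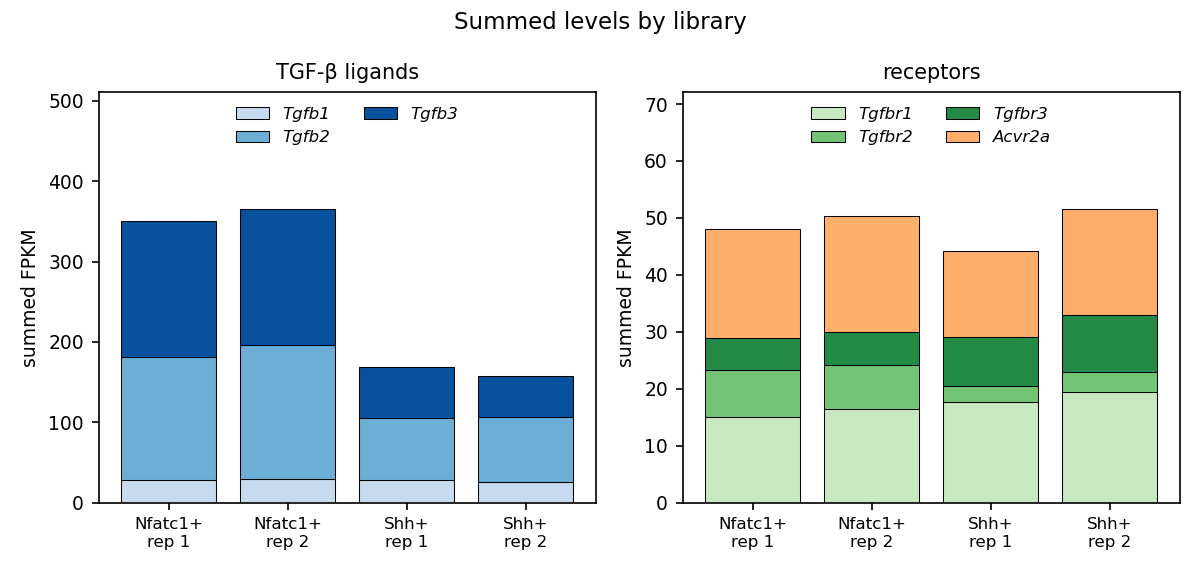
Summed FPKM of the TGF-β ligands (left) and the 4 receptors (right) in each of the 4 libraries, as bars from 0 divided by gene. The ligand bars of Nfatc1+ cells reach 349.9 and 364.9 FPKM against 168.6 and 157.7 FPKM in Shh+ cells, whereas the receptor bars of the groups reach similar heights with a smaller Tgfbr2 segment in Shh+ cells.

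Of the activin subunit genes Inhba and Inhbb, nearly all of the summed FPKM came from Inhbb. Inhbb encodes the βB subunit, whose dimer is activin B, lies on chromosome 1 from 119415465 to 119422248, and was at 36.2 and 37.0 FPKM in Nfatc1+ cells against 6.25 and 5.66 FPKM in Shh+ cells. The libraries of each group lay close together and the groups far apart. The means of 36.6 ± 0.549 and 5.96 ± 0.419 FPKM differed 6.14-fold (log2 fold change -2.52, SE 0.09, limma adjusted p = 4.66e-06).

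Inhba, which encodes the βA subunit and lies on chromosome 13 from 16011851 to 16031621, was at 0.126 and 0.203 FPKM in Nfatc1+ cells and at 0.339 and 0.328 FPKM in Shh+ cells. It was low in all 4 libraries and did not pass the filter. Without any filter on low values its limma adjusted p lay between 0.106 and 0.133. Inhbb made up 99.7% and 99.5% of the summed subunit FPKM in the Nfatc1+ libraries and 94.9% and 94.5% in the Shh+ libraries. The paralogs whose promoters are printed above thus stood at a ratio of Inhbb to Inhba of 288 and 181.9 in Nfatc1+ cells and 18.4 and 17.3 in Shh+ cells.

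The 4 receptor genes were lower in FPKM than Tgfb2 and Tgfb3 in every library, and their sum was similar in the groups, at 48.0 and 50.3 FPKM in Nfatc1+ cells and 44.3 and 51.5 FPKM in Shh+ cells. Within that sum the coreceptor and the type II receptor for TGF-β went in opposite directions. Tgfbr2, the only type II receptor for TGF-β ligands, lies on chromosome 9 from 116084293 to 116175360 and was at 8.16 and 7.78 FPKM in Nfatc1+ cells and at 2.80 and 3.42 FPKM in Shh+ cells. Both Nfatc1+ libraries were higher than both Shh+ libraries. The means of 7.97 ± 0.265 and 3.11 ± 0.441 FPKM differed 2.57-fold (log2 fold change -1.24, SE 0.13, limma adjusted p = 0.000495).

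Tgfbr3, which encodes betaglycan and lies on chromosome 5 from 107106570 to 107289629, was at 5.66 and 5.67 FPKM in Nfatc1+ cells and at 8.61 and 10.05 FPKM in Shh+ cells. Both Shh+ libraries were higher, in the direction opposite to Tgfbr2. The means of 5.67 ± 0.00810 and 9.33 ± 1.02 FPKM differed 1.65-fold (log2 fold change 0.67, SE 0.11, limma adjusted p = 0.00408). This call ended without the filter on low values, at an adjusted p = 0.0731 with limma, and did not reach 2-fold. The ratio of Tgfbr3 to Tgfbr2 was 0.694 and 0.729 in the Nfatc1+ libraries and 3.08 and 2.94 in the Shh+ libraries, so their order was turned.

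Tgfbr1, the type I receptor that phosphorylates Smad2 and Smad3, lies on chromosome 4 from 47353222 to 47414931 and was at 15.1 and 16.5 FPKM in Nfatc1+ cells and at 17.7 and 19.5 FPKM in Shh+ cells. The groups did not overlap, nor did they for 70.7% of all tested genes. The difference did not pass the test (log2 fold change 0.23, 95% confidence interval 0.02 to 0.44, limma adjusted p = 0.0834). The ratio of Tgfbr2 to Tgfbr1 was 0.541 and 0.472 in the Nfatc1+ libraries and 0.158 and 0.176 in the Shh+ libraries. Acvr2a, the type II receptor for activins, lies on chromosome 2 from 48814109 to 48903269 and was at 19.1 and 20.3 FPKM in Nfatc1+ cells against 15.1 and 18.6 FPKM in Shh+ cells. The groups lay apart by less than the gap between the Shh+ libraries, and the gene was not called (log2 fold change -0.23, 95% confidence interval -0.49 to 0.03, limma adjusted p = 0.146). Without Shh+ replicate 2, the shallowest library, it was called at an adjusted p = 0.0315. Of its exon bases, 446, or 7.84%, are shared with Orc4 on the opposite strand, and since strand use in the counting is not given in the sources used here, reads of these genes may be mixed there. Acvr2a was above Tgfbr2 in every library, with ratios of 2.34 and 2.61 in Nfatc1+ cells and 5.41 and 5.43 in Shh+ cells.

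Tgfbi encodes a secreted matrix protein that binds collagens and integrins and was named for its induction by TGF-β. It lies on chromosome 13 from 56609523 to 56639562 and was at 38.3 and 44.4 FPKM in Nfatc1+ cells against 4.31 and 3.86 FPKM in Shh+ cells. The groups stood far apart. Its means of 41.3 ± 4.34 and 4.09 ± 0.319 FPKM differed 10.1-fold, the largest difference of the 9 tested genes (log2 fold change -3.19, SE 0.11, limma adjusted p = 4.40e-06).

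Ordered by mean FPKM in Nfatc1+ cells, the 10 genes ran Tgfb3, Tgfb2, Tgfbi, Inhbb, Tgfb1, Acvr2a, Tgfbr1, Tgfbr2, Tgfbr3 and Inhba. In Shh+ cells the order was Tgfb2, Tgfb3, Tgfb1, Tgfbr1, Acvr2a, Tgfbr3, Inhbb, Tgfbi, Tgfbr2 and Inhba, with the libraries of Tgfbr1 and Acvr2a overlapping. Tgfbi and Inhbb, above Tgfb1 and all 4 receptors in Nfatc1+ cells, thus lay below Tgfb1, Tgfbr1, Acvr2a and Tgfbr3 in Shh+ cells.

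**Figure D3:**
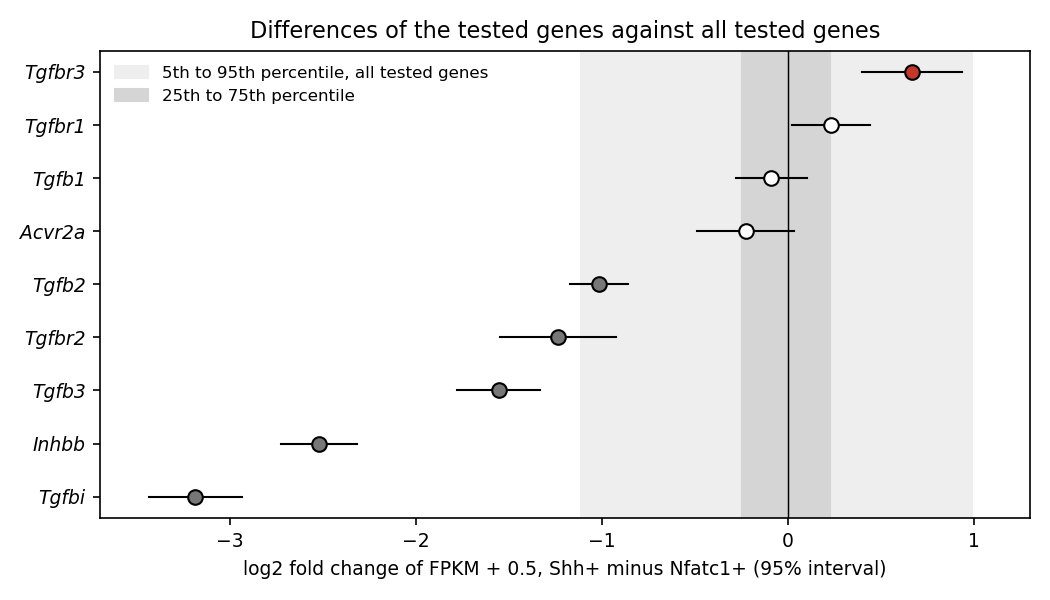
Log2 fold change of FPKM + 0.5 (Shh+ minus Nfatc1+) of the 9 tested genes with 95% confidence intervals from limma, over grey bands for the 5th to 95th and 25th to 75th percentiles of all tested genes, with filled points for called genes. Tgfbi (-3.19) and Inhbb (-2.52) lie farthest below 0, Tgfbr3 (0.67) lies above 0, and the intervals of Tgfb1 and Acvr2a cross 0.

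Of 64 other genes of the pathway, listed by role, 50 passed the filter on low values and 28 of these, or 56%, were called. Of the 28, 22 were higher in Nfatc1+ cells and 6 were higher in Shh+ cells. Among all tested genes 37.0% were called, 18.9% higher in Nfatc1+ cells and 18.1% higher in Shh+ cells. The counts by role below are to be read beside the same shares. The median log2 fold change over the 50 was -0.22. Calls of at least 2-fold numbered 7 in the direction of Nfatc1+ and 2 in the direction of Shh+. Among all tested genes, such calls made up 5.81% and 4.77%. Several of the pathway genes respond to other pathways too, and their lists are described by counts alone.

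Among extracellular inhibitors, 3 of the 5 tested genes were higher in Nfatc1+ cells, 1 was higher in Shh+ cells and 1 was not called. Fst encodes follistatin, which binds activin and blocks its access to the receptors, and was at 135 and 140.3 FPKM in Nfatc1+ cells against 10.8 and 18.9 FPKM in Shh+ cells. It lay far higher in both Nfatc1+ libraries, 9.28-fold by the means (log2 fold change -3.22, limma adjusted p = 6.71e-05), in the same direction as Inhbb. The ratio of Inhbb to Fst was 0.268 and 0.263 in the Nfatc1+ libraries and 0.580 and 0.30 in the Shh+ libraries, the latter 2 differing widely, so the inhibitor transcript was above that of the subunit in all 4 libraries. Dcn, which encodes the matrix proteoglycan decorin that binds TGF-β, was at 40.3 and 57.7 FPKM in Nfatc1+ cells and at 326 and 425 FPKM in Shh+ cells. The means differed 7.67-fold (log2 fold change 2.94, limma adjusted p = 4.20e-05). Dcn is also a fibroblast marker. The other genes of the fibroblast and dermal papilla list summed to 332.5 and 606.7 FPKM in Nfatc1+ cells and 278 and 245 FPKM in Shh+ cells, most of it from Col1a1, Col1a2, Col3a1 and Vim, and Lum, of the same list, was at 6.20 and 12.8 FPKM against 12.1 and 10.00 FPKM. The part of fibroblasts in the Dcn difference was not tested. Bambi, a decoy receptor, was at 1.42 ± 0.0395 and 1.46 ± 0.0302 FPKM and was not called (limma adjusted p = 0.903).

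In the list of genes linked to TGF-β latency and activation, 9 of 12 tested were higher in Nfatc1+ cells. In Shh+ cells 1 was higher, and 2 were not called, with a median log2 fold change of -0.64 over the 12. Ltbp2, a microfibril protein of the latent TGF-β binding protein family, was at 2.64 and 3.65 FPKM in Nfatc1+ cells and, in Shh+ cells, at 0.202 and 0.0928 FPKM (log2 fold change -2.49, limma adjusted p = 0.000257). Itgb6, the β subunit of the integrin αvβ6 that activates latent TGF-β, was at 3.62 and 3.83 FPKM in Nfatc1+ cells and in Shh+ cells at 1.04 and 1.20 FPKM (log2 fold change -1.39, limma adjusted p = 0.000663). Thbs1, whose product thrombospondin 1 also activates latent TGF-β, was at 44.4 and 61.1 FPKM against 15.8 and 15.2 FPKM (log2 fold change -1.71, limma adjusted p = 0.000150). None of these 3 overlapped between the groups, nor did 70.7% of all tested genes. The call of Thbs1 ended without the filter on low values (limma adjusted p = 0.0555). Ltbp1, which tethers the latent complex to the matrix, was at 46.7 ± 0.367 and 42.0 ± 4.91 FPKM and was not called (limma adjusted p = 0.211), though it was without Shh+ replicate 1 (adjusted p = 0.0371).

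Of 13 tested Smads and cofactors, which carry the signal inside the cell, 10 were not called, 2 were higher in Shh+ cells and 1 was higher in Nfatc1+ cells, and the median log2 fold change was 0.11. Smad3 was at 21.8 and 24.6 FPKM in Nfatc1+ cells and at 32.9 and 33.1 FPKM in Shh+ cells, a 1.42-fold difference (log2 fold change 0.50, limma adjusted p = 0.00309) that was not called without the filter on low values (adjusted p = 0.0759). Its partner Smad2, at 10.9 ± 0.851 and 10.1 ± 0.413 FPKM, the common Smad4, at 45.1 ± 1.79 and 45.3 ± 2.91 FPKM, and the inhibitory Smad7, at 8.48 ± 0.484 and 8.67 ± 0.908 FPKM, were not called. Their limma adjusted p-values were 0.475, 0.956 and 0.865, and the 95% confidence intervals of their log2 fold changes were -0.33 to 0.14, -0.17 to 0.18 and -0.24 to 0.29.

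Of the other receptors and coreceptors, 3 of 5 were tested and 1 was called. Acvr1b, the type I receptor for activin, was at 76.3 and 77.8 FPKM in Nfatc1+ cells and at 65.3 and 66.6 FPKM in Shh+ cells, above Tgfbr1 and Acvr2a in every library. It was 1.17-fold higher in Nfatc1+ cells (log2 fold change -0.22, limma adjusted p = 0.0214), a call that ended without Nfatc1+ replicate 1, Nfatc1+ replicate 2 or Shh+ replicate 1 (adjusted p = 0.0714, 0.109 and 0.0693) and without the mean-variance trend (0.0845). Acvr2b, the other activin type II receptor, was at 6.42 ± 0.794 and 7.88 ± 2.23 FPKM and was not called (limma adjusted p = 0.334), but it was without Shh+ replicate 2 (adjusted p = 0.0439, higher in Shh+ cells). Eng, a coreceptor best known from endothelium, was at 1.24 ± 0.337 and 0.972 ± 0.0981 FPKM (limma adjusted p = 0.459). Of 10 other ligand genes only Inha and Gdf11 passed the filter. Limma called 0 of these 2, and 0 had an unadjusted p under 0.05. Inha was at 15.4 and 16.4 FPKM in Nfatc1+ cells and at 16.3 and 16.2 FPKM in Shh+ cells. It was thus below Inhbb in the Nfatc1+ libraries and above it in the Shh+ libraries.

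Among 19 tested genes that respond to TGF-β in other cells, 10 were higher in Nfatc1+ cells, 2 were higher in Shh+ cells and 7 were not called, with a median log2 fold change of -0.69. Ltbp2 and Itgb6 belong to this list as well as to the latency list, and Smad7 and Skil to this list and to that of the Smads. Cdkn1a, a cell cycle inhibitor, was at 44.6 and 43.4 FPKM in Nfatc1+ cells and in Shh+ cells at 22.7 and 18.6 FPKM (log2 fold change -1.08, limma adjusted p = 0.000256, but 0.0537 without the filter). Tnc, which encodes the matrix protein tenascin C, was at 26.8 and 27.8 FPKM against 9.66 and 10.8 FPKM (log2 fold change -1.37, limma adjusted p = 4.68e-05). The gene of parathyroid hormone-like hormone, Pthlh, was at 135 and 134.5 FPKM against 41.1 and 43.4 FPKM (log2 fold change -1.66, limma adjusted p = 5.36e-06). Each of these 3 was higher in both Nfatc1+ libraries, and the groups likewise did not overlap for 70.7% of all tested genes. Fn1, which encodes fibronectin, went the other way, at 44.1 and 54.1 FPKM in Nfatc1+ cells and at 332.5 and 304.5 FPKM in Shh+ cells. The fold was 6.49 (log2 fold change 2.69, limma adjusted p = 6.22e-06).

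**Figure D4:**
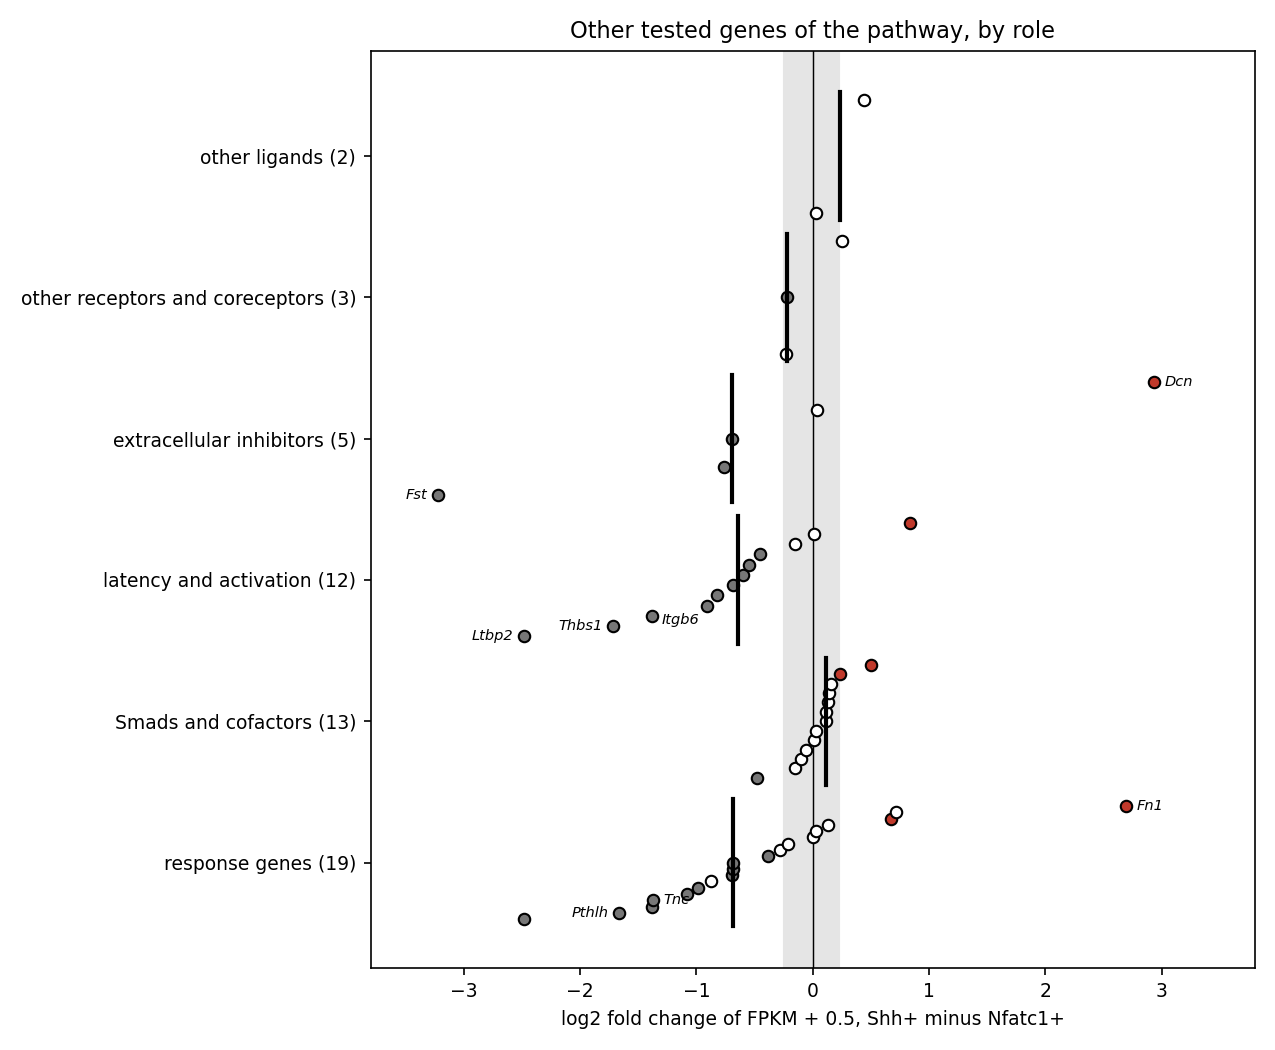
Log2 fold change of FPKM + 0.5 (Shh+ minus Nfatc1+) of the other tested pathway genes, 1 point per gene in rows by role, with the number of tested genes in brackets, a bar at each row's median, filled points for called genes and a grey band for the middle 50% of all tested genes. The latency and response rows lie mostly to the left, around medians of -0.64 and -0.69, the Smads lie near 0, and Fst on the left and Dcn and Fn1 on the right are farthest out.

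The genes whose pattern over the 4 libraries was nearest to that of Inhbb, by Euclidean distance of the centred log2(FPKM + 0.5), were Fam132a (distance 0.11), BC016579 (0.12), Snhg9 (0.12), Tfap2e (0.13) and Tns1 (0.13). Fam132a, the nearest, was at 144.6 and 134 FPKM in Nfatc1+ cells and at 25.8 and 23.6 FPKM in Shh+ cells, and Snhg9 was listed at 0 in both Shh+ libraries. Nearest to Tgfbi were Has2 (0.11), Atoh1 (0.15), Mfap3l (0.16), Nbl1 (0.18) and Sfrp1 (0.19). Has2, a hyaluronan synthase, was at 6.87 and 7.16 FPKM in Nfatc1+ cells and at 0.386 and 0.293 FPKM in Shh+ cells, and Atoh1, a defining gene of Merkel cells, was at 6.28 and 7.31 FPKM against 0.240 and 0.232 FPKM. These distances rest on 4 libraries, and the added 0.5 shrinks the changes of low genes such as Has2, Atoh1 and Snhg9. By mean FPKM, Atoh1 differed 28.7-fold, against 10.1-fold for Tgfbi.

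Other gene lists moved with the population, and their part in the differences above was not tested. For comparison, 18.9% of all tested genes were called higher in Nfatc1+ cells and 18.1% higher in Shh+ cells. Of 12 basal epidermis genes, a list added after the values had been seen, 10 were higher in Nfatc1+ cells and the other 2 were not called, with summed levels of 8433 to 8542 FPKM in Nfatc1+ cells and 4956 to 4985 FPKM in Shh+ cells. Nfatc1+ cells were also higher in 7 of 9 tested genes of Merkel cells, and there the 10 of the list summed to 64.1 to 72.5 FPKM against 27.1 to 32.2 FPKM in Shh+ cells, with the defining genes Atoh1 and Pou4f3 below 1 FPKM in the Shh+ libraries and Krt20 at 0 in Shh+ replicate 1. Of 21 tested immediate early and stress genes, 16 were higher in Nfatc1+ cells and 2 were higher in Shh+ cells, with sums of 4393 to 4771 FPKM against 2957 to 3266 FPKM. Fos was at 817 and 735.5 FPKM in Nfatc1+ cells and at 242.5 and 207 FPKM in Shh+ cells. The fibroblast collagens Col1a1, Col1a2 and Col3a1 summed to 236 and 475 FPKM in Nfatc1+ cells and to 204 and 169 FPKM in Shh+ cells, highest in Nfatc1+ replicate 2. Without that library, the log2 fold changes of Tgfb2, Tgfb3 and Inhbb were -0.96, -1.56 and -2.51. Those of Tgfbr2, Tgfbr3 and Tgfbi were -1.27, 0.67 and -3.08. Since Nfatc1+ replicate 1 also had a higher collagen sum than both Shh+ libraries, these values cannot decide the part of fibroblasts, which was not tested. Melanocyte genes, of which 1 of 10 was called, summed to 32.2 and 67.1 FPKM in Nfatc1+ cells and 8.20 and 46.1 FPKM in Shh+ cells. No tested gene of the immune (4) or endothelium (5) lists was called by limma, and 0 of them had an unadjusted p under 0.05, with sums of 4.86 to 9.62 FPKM and 3.66 to 5.63 FPKM over all 4 libraries. The immune gene Ptprc was at most at 0.0555 FPKM, and Cd52 was listed at 0 in all libraries but Shh+ replicate 1. No muscle gene passed the filter, and that list summed to at most 1.74 FPKM.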

How the data were processed

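RNA-seq was analysed in 4 libraries, 2 of Nfatc1+ and 2 of Shh+ cells, grouped by their labels. The authors mapped reads with TopHat (2.0.13) to mm10 and deposited FPKM values made with Cufflinks (2.2.1). HTSeq also appears in the submitters' processing notes, with no role named there, and the gene annotation is not given in the sources used here. No read counts were used, so no count test was run. FPKM values were tested with limma (3.58.1, R 4.3.3, lmFit, eBayes with trend) on log2(FPKM + 0.5) for genes averaging 0.5 FPKM or more. The test was two-sided, with Benjamini-Hochberg adjustment over the 12750 genes tested. The procedure was also run on simulated data with independent noise in each library. Such data cannot test whether the libraries are separate embryos, or the part of the digestion. Ratios between genes were taken within a library and compared by exact permutation. The authors' own comparison of the populations was not used. No column of the table was left unused.

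The 10 genes and all lists were chosen with earlier results of these data known. Of the other pathway genes, those named are the called ones with an absolute log2 fold change of at least 1, and always Smad2, Smad3, Smad4, Smad7, Fst, Acvr1b, Acvr2b, Eng, Bambi and Ltbp1, and for Inhbb and Tgfbi the 5 nearest genes in pattern. Orc4, Inha, Gdf11 and single marker genes were named after their values were seen, as were the basal epidermis list and the ratios of Tgfb3 to Tgfb2 and of Acvr2a to Tgfbr2. Gene positions are from the GENCODE annotation of GRCm38 and promoters from RefSeq. Alternatives were other pseudocounts, filters, scalings and thresholds, a fit without the trend, the replicate number as a block, and each library left out.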

Additional observations from a re-analysis of the deposited data

How the results depend on the processing

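Over the alternatives, the calls of Tgfb2, Tgfb3, Inhbb, Tgfbr2 and Tgfbi held each time at an adjusted p under 0.05 with limma. Their highest limma adjusted p-values were 0.0264, 0.0352, 0.0140, 0.0471 and 0.0145. Of the 10 genes, none of the 9 tested changed the sign of its fold change. Without a filter on low values, the genes among the 10 called higher in Shh+ cells went from 1 to 0 with limma (2 at an unadjusted p under 0.05), the other pathway genes called higher in Nfatc1+ cells from 22 to 10 and in Shh+ cells from 6 to 3, and calls over all genes from 4716 of 12750 to 2009 of 23361. With genes at 0 in every library left out, an alternative chosen after seeing the data, 4408 of 17092 genes were called and the call of Tgfbr3 held (adjusted p = 0.0157). The form of the study's threshold is an unadjusted p under 0.01 with a fold above 2. By limma at that threshold, 5 of the 10 genes were higher in Nfatc1+ cells and 0 in Shh+ cells. The other pathway genes numbered 7 in Nfatc1+ and 2 in Shh+ cells. The share of all tested genes under this rule is not given here. Calls at an adjusted p under 0.05 with at least 2-fold made up 5.81% and 4.77% of them. Leaving out each library in turn left a group with a single library, so effect sizes are given here. The log2 fold change ran from -1.08 to -0.96 for Tgfb2, from -1.70 to -1.41 for Tgfb3 and from -2.59 to -2.46 for Inhbb. For Tgfbr2 it ran from -1.36 to -1.11, for Tgfbr3 from 0.56 to 0.77 and for Tgfbi from -3.29 to -3.08. The replicate numbers are shared by the groups but nothing in the labels says that they pair the libraries. The deviations of same-numbered libraries correlated at 0.114 over 12750 genes, and the fit with the replicate block called 5 and 1 of the 10 genes, 23 and 7 of the other pathway genes, and 4947 genes in all. With 2 libraries per group, and with Shh+ replicate 2 the shallowest at a relative depth of 0.575, values below about 0.5 FPKM, such as those of Inhba, could not be compared firmly.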

Other observations

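Some pathway genes too low to be tested are given as values only. Cdkn2b, which encodes a cell cycle inhibitor induced by TGF-β, was at 0.209 and 0.226 FPKM in Nfatc1+ cells and at 0.678 and 0.849 FPKM in Shh+ cells, the direction opposite to that of Cdkn1a. Lrrc32, whose product holds latent TGF-β at the cell surface, was at 0.635 and 0.432 FPKM in Nfatc1+ cells and at 0.431 and 0.0818 FPKM in Shh+ cells, so that a library of each group lay at nearly the same level. Nodal, a ligand best known from the early embryo, was at 0.0445 FPKM and listed at 0 in the Nfatc1+ libraries and was at 0.144 and 0.309 FPKM in the Shh+ libraries. Mstn, Lefty2, Gdf3, Inhbc, Tdgf1 and Ankrd1 were listed at 0 in all 4 libraries.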
